A study of Capra hircus with 10 samples.

Results

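Compact circRNAs were the 219 of 1327 goat circRNAs (16.5%) whose 2 back-spliced ends lay 2000 bases or less apart on the genome, a distance called the span here and taken as the full length that the location table lists. The circRNAs were measured in 5 libraries of intramuscular preadipocytes (IMPA, day 0) and 5 libraries of intramuscular adipocytes (IMA, day 3), all of wild-type genotype and all labelled as under adipogenic differentiation, with intramuscular fat as the source. Per the study's methods, the cells were isolated from fat within the longissimus dorsi of 3 male Jianzhou goats at 7 days of age, and IMA were the cultured cells after induction in a medium with oleic acid. The goat behind each library was not stated, and since 3 goats gave 10 libraries, some libraries share an animal. Each SD and p-value therefore covers only the spread between libraries, which may be partly technical. Of 6 adipocyte and 6 striated muscle marker genes, 0 adipocyte and 2 muscle genes hosted a circRNA and none hosted a compact one, so the cell types of the labels could not be checked on these circles. The IMPA libraries held 11421 to 15553 junction reads, the IMA libraries 9622 to 12499, and no 2 libraries of a group were alike within counting error. By the study's read statistics, a smaller part of the clean reads mapped in every IMA library than in every IMPA library. This gap runs along the groups, so its part in any difference between IMPA and IMA cannot be told apart.

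A circRNA forms when the spliceosome joins the end of an exon back to the start of the same exon or of an exon upstream, and the closed ring has no free end for exonucleases to attack. The junction read crosses this back-splice and is the one kind of read that marks the circle, while non-junction reads at the same ends follow the ordinary splicing of the host gene. Most circles hold a few exons, intron circles can keep intron sequence, and abundant circles have been studied as sponges for miRNAs and for proteins.

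No genome sequence was used here, so the circles themselves are not printed. The study's primer table holds primer pairs for 4 compact circRNAs, of VASH2, CEMIP, CAMSAP1 and ITGAV, which are shown because VASH2 and CEMIP were called between IMPA and IMA and CAMSAP1 and ITGAV passed a looser threshold in the same test. Each primer is written 5′ to 3′ in lower case under the F or R name of that table, which lists CAMSAP1 R before F, so that these 2 names may be swapped there, and no base is in capitals because the place of the back-splice in the product was not determined.

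VASH2 circ_0008259 F: actcgggagtccctgcctat
VASH2 circ_0008259 R: ttaacccactcagcggtctc
CEMIP circ_0009677 F: cctacctcaccaaggacgac
CEMIP circ_0009677 R: aggcgttgttcagacggaag
CAMSAP1 circ_0005860 F: ctgctcgtactggtcgatgtaa
CAMSAP1 circ_0005860 R: ggagatgatcagcattgagaagg
ITGAV circ_0000946 F: gacagaaaaccaaacccgcc
ITGAV circ_0000946 R: aaggtcagagggttgtcgtc

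The compact circRNAs came from 209 host genes, and 55 of these hosts (26.3%) also gave circRNAs of longer span. A protein-coding gene hosted 212 of them and a lncRNA gene 3, while 4 had no host. They lay on 30 chromosomes, with 19 on chromosome 7, 12 on chromosome 3 and 11 on chromosome 2, and 3 lay on unplaced sequences. An end was shared with another circRNA by 16.4% of compact and 34.3% of remaining circRNAs. The spans ran from 256 to 1991 bases with a median of 1067, against a median of 10196 among the 1108 remaining circRNAs, a contrast that the selection itself sets. The spliced length, which counts the annotated blocks within the ends, was not selected on, and its median was 326 in compact and 318 in remaining circRNAs.

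By the annotated blocks, 57 compact circRNAs held 1 block, 109 held 2, 50 held 3 and 3 held 4. The largest class was of exon circles with 2 or more blocks that reached both ends, with 140 members and 16534 junction reads. A single exon block made up the whole circle in 36 members with 3918 reads, and an intron member of SEMA3F and an intergenic member on chromosome X were single blocks as well, which gave 38 single-block circles. In 23 exon circles the annotated blocks stopped short of 1 end, and these had 2129 reads. The 16 intron circles had 995 reads and the 4 intergenic circles had 352. Intron is the listed label and does not mean 1 stretch of intron. Of the 16, 12 held 2 annotated blocks, 1 held 3 and 3 held 1, with a median spliced length of 320 bases against a median span of 872. No remaining circRNA was a single block reaching both ends, since no spliced length in the table passed 672 bases.

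The shortest circles were single exon blocks of ZNF608 at 256 bases, FGFR1 at 267 bases and GATAD2A at 269 bases. Just inside the limit lay a circle of HMCN1 at 1991 bases, with 72 reads and a circular share (defined with the comparison of circular and linear reads) of 2.69%. Just outside it lay circles of SPIRE1 at 2009 bases, with 113 reads and 13.6%, and of MYBPC1 at 2013 bases, with 36 reads, of which 0 came from IMPA libraries.

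**Figure D1:**
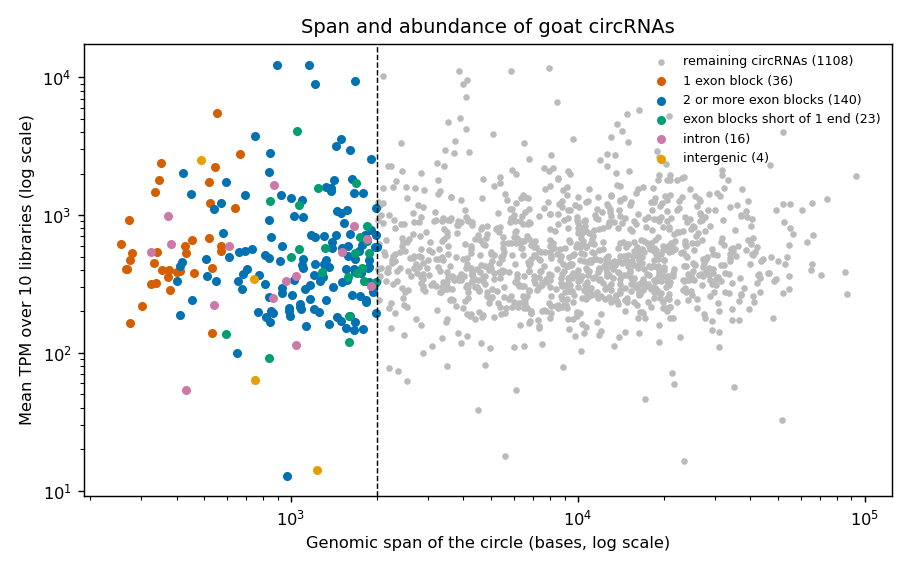
Each point is 1 circRNA with at least 1 junction read, at its genomic span in bases (x axis, log scale) and its mean TPM over the 10 libraries (y axis, log scale), with compact circRNAs coloured by class, remaining ones in grey and the limit of 2000 bases dashed. The compact points fill the same range of TPM as the grey ones, with medians of 458 and 457.

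Compact circRNAs and circles of longer span had nearly the same median abundance. The deposited TPM scales the junction reads of a circRNA to the total of the library and has no length term, and its mean over libraries had a median of 458 in compact and 457 in remaining circRNAs. Within libraries, the median log10(TPM + 1) of compact minus remaining circRNAs was 0 in 9 of the 10 libraries and -0.0967 in IMA4. These medians tie because most counts are small whole numbers, so a test over libraries carries no information, and the mean difference was -0.278 with counts under 5 set to 0. Compact circRNAs held 23928 of the 121334 junction reads (19.7%), and 5 of the 20 most abundant circRNAs were compact. Across the 219 compact circRNAs, Spearman's rho of span with mean TPM was -0.0103 and of spliced length with mean TPM 0.05, both computed over circles that share the same libraries. All 10 libraries held reads of 112 compact circRNAs (51.1%) and of 52.2% of the remaining ones. The intron circle of TWIST2 was listed at 0 reads in all 10 libraries. No count of 1 is listed for any circRNA, so a 0 may also stand for 1 read.

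A few circles carried much of the total: the 4 most abundant held 21.9% of compact junction reads and the 10 most abundant 33.7%. The circle of VASH2, which encodes a tubulin carboxypeptidase, had a mean TPM of 12393. The circle of CAMSAP1, a protein that binds microtubule minus ends, had a mean TPM of 12378. CEMIP, a gene for hyaluronan breakdown, followed with 9426, and PRMT2, an arginine methyltransferase gene, with 9009. The other circles of the 10 were those of INSR at 5494, EEFSEC at 4071, ZCCHC4 at 3772, EPDR1 at 3583, FAM129B at 3162 and RTCA at 2964, so that the first 4 stood above the rest by their TPM.

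The most abundant single-block exon circle was that of INSR. The circle of INSR, the insulin receptor, was 1 exon of 552 bases with 26 predicted miRNA pairs. Its junction reads were 85, 56, 68, 62 and 77 in IMPA1 to IMPA5 and 67, 62, 79, 56 and 51 in IMA1 to IMA5. The groups overlapped, with a log2 fold change of IMA over IMPA of 0.11 ± 0.13 (SE; edgeR adjusted p = 0.735). The circle of IGF1R, the receptor of insulin-like growth factor 1, was 1 exon of 546 bases and had 15 to 38 reads in every library. The other single-block exon circles among the 5 most abundant were those of CDYL, a chromodomain protein gene, with a mean TPM of 2755, PANK1, a pantothenate kinase gene of coenzyme A synthesis, with 2407, and DCLK1, a kinase gene with microtubule-binding domains, with 1809.

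Intron and intergenic circles were few. The most abundant intron circle lay in WDFY3, an autophagy adaptor gene, with 16 to 28 reads in every library and a mean TPM of 1666. SEMA3F, which encodes a secreted semaphorin, was the one host with 3 compact circRNAs. All 3 were intron circles on chromosome 22, minus strand, with 1 shared end at 50251834 and the other ends at 50251294, 50251451 and 50251463, and they had 27, 79 and 121 reads. Their non-junction reads were counted at nearly the same ends and are not independent. The other intron circles named for abundance were those of DIAPH2, a formin gene, with 100 reads and 0 reads in IMA2, and ZNF385D with 84 reads. An intergenic single block on chromosome X (65541939 to 65542425, minus strand, 487 bases) was the most abundant intergenic circle, with 23 to 36 reads in every library. The other intergenic circles had 42, 8 and 2 reads.

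RILPL1, KCTD9 and LMO7 had 2 compact circRNAs each, as did SYNE1. The RILPL1 pair shared an end at 19087850 of chromosome 17 and differed by 36 bases at the other end, and the location table listed the shorter as exon, with 162 reads, and the longer as intron, with 46 reads. The KCTD9 pair lay apart on chromosome 8, from 72524098 to 72525202 with 122 reads and from 72555706 to 72556797 with 159 reads. A median of 10 predicted miRNAs per compact circRNA and 9 per remaining one were listed, or 3.02 and 3.08 per 100 spliced bases, and the number followed the spliced length with a Spearman's rho of 0.602 over the 219 compact circRNAs. No miRNA was listed for 4 compact circRNAs, the VASH2 circle among them, while the CEMIP circle had 21.

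Compact circRNAs had a higher circular share than remaining ones in every library. The circular share is the doubled count of junction reads as a percentage of that doubled count plus the non-junction reads, since a linear transcript can give a non-junction read at both ends. It was computed for the 112 compact and 578 remaining circRNAs called in all 10 libraries, because the table lists non-junction reads only where a circRNA was called. Pooled over circRNAs, compact minus remaining was 2.79 percentage points ± 0.396 (SD, n = 10 libraries), above 0 in 10 of 10 libraries (exact sign-flip permutation test, two-sided, p = 0.00195, the smallest this test can give, Benjamini-Hochberg adjusted p = 0.0137 over the 7 measures compared per library). The gap was 4.81 points with the limit at 1000 bases, 1.44 with it at 5000 and 1.56 with junction reads counted once, above 0 in each of these by the same test (exact p = 0.00195). The same circRNAs were pooled in every library, so these p-values cover the spread over libraries and not the spread among circRNAs. Among single circRNAs the median share was 15.9% in compact and 10.8% in remaining ones, 8.93% of compact and 4.33% of remaining circRNAs had a share over 50%, and 20.5% and 18.9% had one under 5%. Median non-junction reads per circRNA were 152 in compact and 185 in remaining circRNAs of IMPA, and 91.2 and 124 in those of IMA, while the median junction reads of the same circRNAs were 11.3 and 10 in IMPA and 8.6 and 8.4 in IMA.

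**Figure D2:**
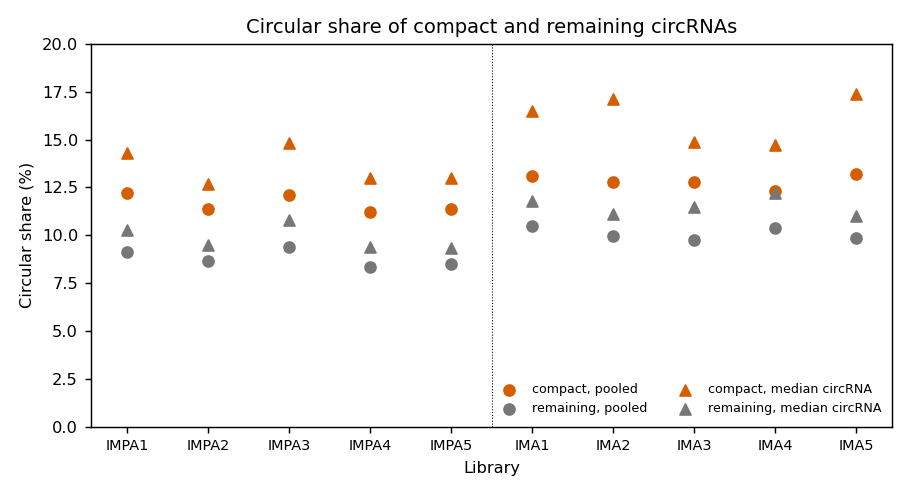
Circular share in percent (y axis) in each of the 10 libraries (x axis), with compact circRNAs in orange and remaining ones in grey, circles for the share pooled over circRNAs and triangles for the median circRNA. Pooled compact shares lie between 11.2% and 13.2% and pooled remaining shares between 8.33% and 10.5%, with the orange circle above the grey one in every library.

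The share differed widely among compact circles. Among those with at least 100 reads, the highest were the circles of CAMSAP1 at 83.8%, INSR at 72%, PRMT2 at 64.2%, MICAL3 at 61.7% and UBL5 at 58.3%. CAMSAP1 junction reads were 215, 156, 176, 176 and 216 in IMPA and 100, 129, 116, 99 and 134 in IMA, beside 63 to 87 non-junction reads in IMPA and 40 to 48 in IMA. Junction reads thus outnumbered linear reads at these ends in each library. The lowest were those of WSB1, a gene for a SOCS box protein, at 1.67%, NUCB1 at 2.27%, DCLK1 at 3.99%, TNPO1, an import receptor gene, at 4.02% and RRAS2, a small GTPase gene, at 5.47%. WSB1 had 9 to 18 junction reads beside 1044 to 2053 non-junction reads in a library. By class, the median share was 45.1% for 7 intron circles, 17.7% for 14 exon circles short of 1 end, 13.8% for 21 single-block exon circles and 13.3% for 69 exon circles with 2 or more blocks. The intron circles include the overlapping SEMA3F circ_0010109 and circ_0010111, at 45.1% and 54.5%. Whether linear reads are counted alike at ends outside the annotated blocks was not tested, so the classes may not be comparable. The 8 remaining intron circles with a share had a median of 27.4%. Spearman's rho of the share with span was -0.11 and with mean TPM 0.434, over the 112 compact circRNAs, where both share and TPM rise with the same junction reads.

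**Figure D3:**
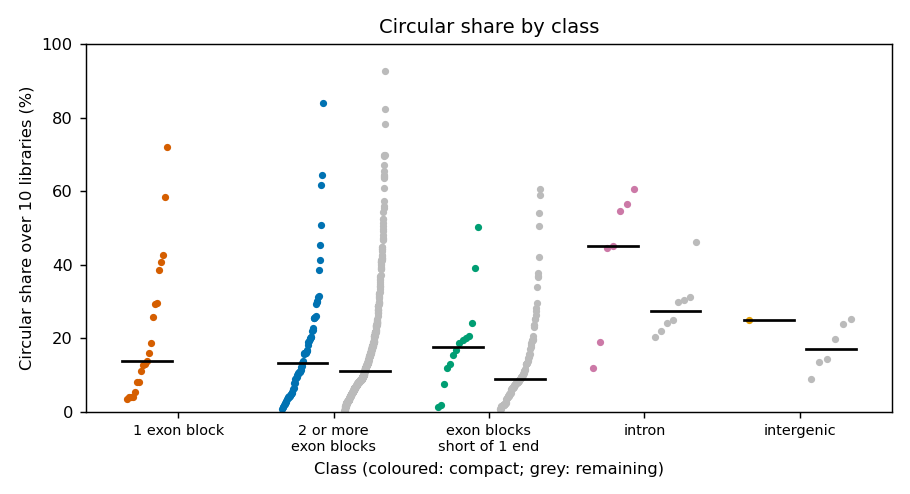
Circular share in percent over the 10 libraries (y axis) of each circRNA called in all of them, by class (x axis), coloured for compact and grey for remaining circRNAs, with a black bar at each median. The 7 compact intron circles have a median of 45.1%, and the highest compact value, 83.8%, is the circle of CAMSAP1.

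From IMPA to IMA, fewer compact circRNAs were detected. A library held reads of 201 ± 4.83 (SD, n = 5) compact circRNAs in IMPA, from 195 to 208, and of 185 ± 7.4 (n = 5) in IMA, from 174 to 193. The groups did not overlap (exact permutation test, two-sided, p = 0.00794, the smallest that 5 against 5 libraries can give, adjusted p = 0.0139). The difference was smaller at equal depth. With every library thinned to 9622 reads and a circle counted at 2 or more reads, the smallest count that the files hold above 0, the numbers were 188 ± 2.68 and 180 ± 3.67, a difference of -7.8 (exact p = 0.00794). Remaining circRNAs numbered 1035 ± 7.89 in IMPA and 964 ± 23.4 in IMA as deposited, and 958 ± 18.4 and 942 ± 16.4 after the same thinning (exact permutation p = 0.183). As deposited, 92% of compact and 93.4% of remaining circRNAs were detected in IMPA, and 84.3% and 87% in IMA. Whether the loss differed between compact and remaining circRNAs was not tested.

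The compact share of all junction reads was 20.1% ± 0.473 (n = 5) in IMPA and 19.2% ± 0.699 (n = 5) in IMA, a difference of -0.897 points (exact permutation p = 0.0397, adjusted p = 0.0556 over the 7 measures), which does not pass after adjustment. The 101 circles of up to 1000 bases held 8.37% ± 0.226 of junction reads in IMPA and 9.10% ± 0.54 in IMA (exact p = 0.0476), and the 118 of over 1000 to 2000 bases 11.7% ± 0.411 and 10.1% ± 0.273 (exact p = 0.00794), with p not adjusted. The VASH2 circle carried the first of these, since without it circles of up to 1000 bases held 7.60% ± 0.16 and 7.59% ± 0.533 (difference -0.013 points, exact p = 0.976). For all compact circRNAs the difference was -1.57 points without the VASH2 circle (exact p = 0.00794), -0.528 without the EEFSEC circle, which was listed at 0 in 2 IMA libraries (exact p = 0.206), and -0.93 without the circles of VASH2, EEFSEC and CEMIP (exact p = 0.0397).

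Single-block circles made up 17.2% ± 0.378 (n = 5) of compact junction reads in IMPA and 19.3% ± 0.952 (n = 5) in IMA. The highest IMPA library was at 17.6% and the lowest IMA library at 18%, so the groups did not overlap (exact permutation p = 0.00794, adjusted p = 0.0139). The circle of INSR went from 2.55% to 3.05% of compact junction reads, that of SAMD4A from 0.65% to 1.13%, and that of CDYL the other way, from 1.67% to 1.12%. Among circles of up to 1000 bases alone the difference was -0.517 points (exact p = 0.444). Intron and intergenic circles held 5.80% ± 0.49 of compact junction reads in IMPA and 5.39% ± 0.649 in IMA (exact permutation p = 0.286, adjusted p = 0.333), and -0.702 points without IMA3 (exact p = 0.0238).

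The pooled circular share of compact circRNAs was 11.6% ± 0.427 (n = 5) in IMPA and 12.8% ± 0.347 (n = 5) in IMA, without overlap (exact permutation p = 0.00794, adjusted p = 0.0139). It rested in part on 1 circle, since without VASH2 it was 11.4% ± 0.446 and 11.9% ± 0.363 (exact p = 0.0556). The median share was 13.5% ± 0.923 and 16.1% ± 1.26 (exact p = 0.0159). Remaining circRNAs also had a higher pooled share in IMA, 8.80% ± 0.437 and 10.1% ± 0.357, and the gap between compact and remaining circRNAs did not pass a test between the groups (difference -0.114 points, exact p = 0.746).

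In the test of junction reads, 1 compact circRNA rose and 2 fell from IMPA to IMA. They were among 210 compact circRNAs with reads in at least 5 libraries, and the other 9 were not tested. At an adjusted p under 0.01 by edgeR's quasi-likelihood test, 0.464% of all 1294 circRNAs tested were called higher in IMA and 0.464% were called lower, which were 6 in each direction. At an adjusted p under 0.05, 7 compact circRNAs (3.33%) passed, 1 higher and 6 lower, beside 1.47% of all those tested in either direction. The 6 include the ITGAV circle, which met the filter through IMPA libraries alone. An unadjusted p under 0.05 was reached by 37 compact circRNAs (17.6%) and by 13.3% of all. The median log2 fold change was -0.11 in compact and -0.07 in all tested circRNAs under TMM scaling, and 0.10 and 0.13 with uniquely mapped reads as library sizes, so each direction is relative to that scaling.

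The circle of VASH2 (chromosome 16, 69271526 to 69272417, minus strand, 892 bases, 2 exon blocks) rose. Its junction reads were 98, 88, 128, 112 and 144 in IMPA1 to IMPA5 and 185, 178, 186, 160 and 166 in IMA1 to IMA5. Every IMA library was above every IMPA library, although IMA libraries were mostly the shallower. The log2 fold change was 0.87 ± 0.11 (SE; edgeR adjusted p = 2.4e-06), and it passed under each of 17 other settings of the fit.

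The circle of EEFSEC, the gene of the selenocysteine elongation factor (chromosome 22, 59343961 to 59345009, minus strand, 1049 bases, exon block short of 1 end), fell. Its reads were 86, 73, 90, 73 and 112 in IMPA and 33, 0, 0, 33 and 25 in IMA. All IMA libraries were below all IMPA libraries, and 2 of them were listed at 0 beside 25 to 33 reads in the other 3, which was the one case among compact circRNAs of a 0 in a group whose other libraries all had 10 or more reads, and 1 of 8 such cases among all circRNAs. The DIAPH2 circle, with 0 reads in IMA2 beside 9 to 17 in the other IMA libraries, lay just under that limit. The log2 fold change was -1.87 ± 0.31 (SE; edgeR adjusted p = 0.000206), and -1.14 ± 0.16 (edgeR adjusted p = 3.38e-05) without IMA2 and IMA3. Whether the zeros are absent reads or a circle left out by the calling was not tested, and DESeq2's Wald test gave an adjusted p of 0.504.

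The circle of CEMIP (chromosome 21, 26404025 to 26405703, plus strand, 1679 bases, 2 exon blocks) fell as well. Its reads were 178, 121, 157, 111 and 191 in IMPA and 74, 76, 109, 78 and 80 in IMA. All IMA counts were below the lowest IMPA count, by little for IMA3 with 109 reads against 111 in IMPA4. The log2 fold change was -0.58 ± 0.12 (SE; edgeR adjusted p = 0.0028). The call held under 10 of 17 other settings and was lost without TMM (adjusted p = 0.0134), with uniquely mapped reads as library sizes (adjusted p = 0.19) and when IMPA1, IMPA5, IMA1, IMA2 or IMA4 was left out (edgeR adjusted p = 0.0104 to 0.0223).

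**Figure D4:**
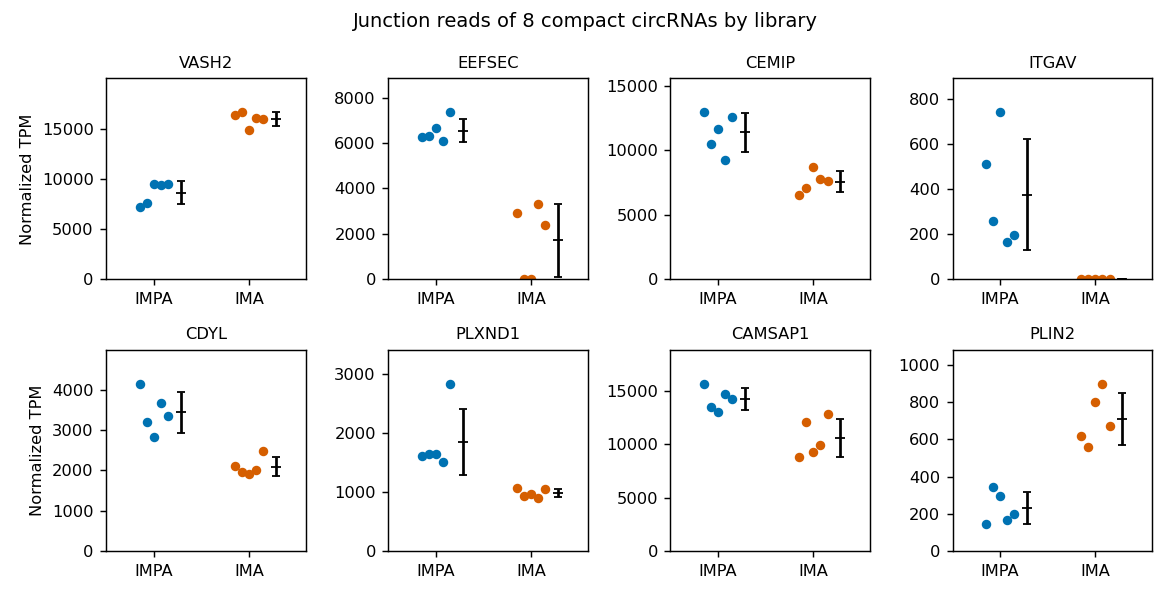
TMM-normalized TPM (y axis, from 0, own scale in each panel) of 8 compact circRNAs in the 5 IMPA libraries (blue) and the 5 IMA libraries (orange), with the mean and SD in black. The circles of VASH2 and PLIN2 lie higher in all IMA libraries, EEFSEC, CEMIP, ITGAV, CDYL, PLXND1 and CAMSAP1 lie lower, and 2 EEFSEC points and all 5 ITGAV points of IMA are at 0.

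A further 4 circles passed 0.05 and not 0.01, all lower in IMA. ITGAV, the integrin alpha V gene, gave 7, 3, 10, 2 and 3 reads in IMPA and 0 in each IMA library. It met the filter of reads in at least 5 libraries through the IMPA libraries alone. Its entry into the test thus depended on the group where it was high, and its p-values are no support for a fall. Only 11 other settings of the fit kept it, and its edgeR adjusted p reached 0.117 with the replicate block. Against a floor of 3 reads per library, or 275, the IMPA mean of 376 normalized TPM was 1.37-fold higher (edgeR adjusted p = 0.0121, and 0.00542 by DESeq2's Wald test). The floor takes a listed 0 as 0 reads, but no count of 1 is listed anywhere, so a 0 may stand for 1 read. The value of 1.37 is therefore not a lower bound. It also concerns the group mean only, since IMPA2, IMPA4 and IMPA5 lay below the floor at 259.8, 166.9 and 197.6. Whether the IMA zeros are absent reads or a circle left out by the calling was not tested. The single-block circle of CDYL had 57, 37, 38, 44 and 51 reads in IMPA and 24, 21, 24, 20 and 26 in IMA, groups that did not overlap, with a log2 fold change of -0.68 ± 0.16 (SE; edgeR adjusted p = 0.0158). PLXND1, a semaphorin receptor gene, gave 22, 19, 22, 18 and 43 reads in IMPA and 12, 10, 12, 9 and 11 in IMA, with IMPA5 far above the rest (log2 fold change -0.83 ± 0.22, edgeR adjusted p = 0.0379). The circle of CAMSAP1, whose reads are given with its circular share, had a log2 fold change of -0.43 ± 0.11 (edgeR adjusted p = 0.0457), which was 0.513 with uniquely mapped reads as library sizes.

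The circles next in order did not pass 0.05. PABPC1, a poly(A)-binding protein gene, gave 21 to 54 reads in a preadipocyte library and 12 to 22 in an adipocyte library (log2 fold change -0.73 ± 0.20, edgeR adjusted p = 0.0501). FAM129B gave 41 to 69 and 18 to 36 reads (log2 fold change -0.57 ± 0.17, edgeR adjusted p = 0.0759). CSNK1G2, a casein kinase gene, gave 7 to 13 and 0 to 6 reads, and DAG1, the dystroglycan gene, gave 0 to 4 and 5 to 8. CDKAL1 gave 2 to 7 reads in the IMPA libraries, while 4 IMA libraries had 0 and IMA5 had 2. Normalized values of the groups did not overlap for 4 compact circRNAs with IMA higher and 9 with IMA lower, beside 2.24% and 2.32% of all tested circRNAs. Of the 13 intron circles tested, 10 had a log2 fold change below 0, with a median of -0.54, the overlapping SEMA3F circles among them. Below 0 also lay 120 of 210 compact and 599 of 1084 remaining circRNAs. Remaining intron circles did not share this, with 8 of 19 below 0 and a median of 0.06. Of the 13, 0 were called by edgeR or DESeq2 at an adjusted p of 0.01. In edgeR, 2 had an unadjusted p under 0.05 (SEMA3F circ_0010109 and EXOC6B).

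Host genes of adipocyte and lipid function gave 4 compact circRNAs, and 0 of the 4 passed by edgeR or DESeq2 in either direction, with 1, the circle of PLIN2, at an unadjusted p under 0.05 in edgeR. PLIN2 encodes a coat protein of lipid droplets, and its circle (1675 bases, 2 exon blocks) had 2, 4, 4, 2 and 3 junction reads in IMPA and 7, 6, 10, 9 and 7 in IMA. The counts did not overlap, and the log2 fold change was 1.15 ± 0.34 (SE; edgeR adjusted p = 0.0759). OSBPL1A, an oxysterol-binding protein gene, gave 5 to 16 and 4 to 8 reads, and PDE3B, a phosphodiesterase gene of insulin signalling, gave 2 to 4 and 0 to 4. The median log2 fold change of the 4 was -0.11, beside -0.07 over all circRNAs tested.

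The gene lists were drawn up with earlier results of these data known. They hold hosts that the study had called, among them CEMIP, ITGAV, VASH2 and CAMSAP1, so a called member is no support for its list. Beside 0.464% of all circRNAs called in each direction, 1 of 3 compact circRNAs of matrix and adhesion hosts fell (CEMIP), and those of ITGAV and FAT1, a protocadherin gene with a log2 fold change of -0.17, did not pass. Among microtubule, centrosome and mitosis hosts, 1 of 6 rose (VASH2), with CAMSAP1 as given. The log2 fold changes were 0.31 for FBXW7, a ubiquitin ligase gene counted in this list, and -0.09 for NCAPG, a condensin gene. On the chromatin (7), RNA-binding (5), muscle (3) and ubiquitin (1) lists, 0 compact circRNAs passed by edgeR or by DESeq2. Of these only that of PABPC1 had an unadjusted edgeR p under 0.05. The lists are not complete. Outside the chromatin list, the circles of CDYL, PRMT2, KANSL1 and MBD2 had unadjusted edgeR p of 0.000195, 0.0064, 0.0111 and 0.0198. Those of KDM5C and SRCAP, also outside it, had 0.759 and 0.13. In the chromatin group the circles of ASH1L and HDAC4 had log2 fold changes of 0.35 and 0.57 and that of KAT2B -0.36. In the RNA-binding group the circle of SF3B1, a splicing factor gene, had 0.49, and both LMO7 circles of the muscle group had 0.64 and 0.67. The list of endothelial, macrophage, pericyte and nerve markers hosted 0 circRNAs of any span.

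Non-junction reads, which follow the linear RNA at the ends of a circle, were higher in IMA at 10 of 112 compact circRNAs and lower at 12 (edgeR adjusted p under 0.01). Over all 690 circRNAs tested, 11.6% were higher and 10.1% lower. At an adjusted p under 0.05, 40 compact circRNAs (35.7%) passed in either direction, beside 35.7% of all. Scaling without TMM gave 5 higher and 20 lower at 0.01. The median log2 fold change was -0.11 in compact and 0.00 in all tested circRNAs.

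At the PLIN2 circle the non-junction reads were 882, 1010, 638, 835 and 733 in IMPA and 2416, 2274, 1932, 1991 and 1973 in IMA. Every IMA library was above every IMPA library, with a log2 fold change of 1.93 ± 0.12 (SE; edgeR adjusted p = 1.51e-14). The circular share there was 0.753% ± 0.319 in IMPA and 0.745% ± 0.212 in IMA (n = 5 each), and the change of junction against non-junction reads did not pass (log2 ratio -0.35 ± 0.57, edgeR adjusted p = 0.783). At the CEMIP circle the non-junction reads were 1386, 1196, 1522, 1321 and 2068 in IMPA and 423, 415, 449, 407 and 437 in IMA, with a log2 fold change of -1.22 ± 0.07 (SE; edgeR adjusted p = 1.21e-14). The IMA libraries were all far below the IMPA libraries.

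Non-junction reads also rose at HIF1A, the gene of a hypoxia-response transcription factor, with a log2 fold change of 0.64 ± 0.08 (edgeR adjusted p = 2.51e-07). Those at the intergenic circle of chromosome X rose by 0.62 ± 0.10 on the log2 scale (edgeR adjusted p = 6.99e-06). They fell at YWHAB, a 14-3-3 protein gene, with a log2 fold change of -0.51 ± 0.06 (edgeR adjusted p = 4.45e-08), and at PRKCA, a protein kinase C gene, with -0.76 ± 0.10 (edgeR adjusted p = 7.98e-07). Junction reads of these 4 circles did not pass, with log2 fold changes of 0.38, 0.22, 0.34 and -0.39. The other hosts with higher non-junction reads were IVNS1ABP, DEPTOR, SPATS2L, ASB1, CDK5RAP2, SAMD4A and RILPL1, and the other hosts with lower ones were DAB2, FARSA, PANK1, IL27RA, FAM3A, TNS3, RRAS2, PABPC1 and MICAL3.

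Junction reads changed against non-junction reads at 2 compact circRNAs, both towards the circle in IMA. The share called was 0.580% higher and 0.145% lower over all 690 circRNAs, and 0 compact circRNAs were called lower by edgeR, with 12 (10.7%) at an unadjusted p under 0.05, beside 8.84% of all. Both were also called by junction reads, so these tests share reads. VASH2 non-junction reads were 783, 716, 788, 733 and 950 in IMPA and 509, 564, 641, 499 and 526 in IMA, which scaled to a log2 fold change of 0.04 ± 0.06 (edgeR adjusted p = 0.622). The VASH2 log2 ratio changed by 0.87 ± 0.13 (SE; edgeR adjusted p = 1.78e-08), and its circular share was 22.2% ± 2.17 in IMPA and 39.1% ± 1.93 in IMA (n = 5 each). At CEMIP both kinds of reads fell, the linear ones by more, so that the log2 ratio changed by 0.65 ± 0.14 (SE; edgeR adjusted p = 0.000346) and the share was 16.9% ± 2.27 and 28% ± 2.7. Without IMA3 the CEMIP ratio did not pass (edgeR adjusted p = 0.0162). Ratios at KCTD9 (circ_0004510, -0.90 ± 0.30), YWHAB (0.95 ± 0.33) and RRAS2 (0.68 ± 0.24) had the next smallest adjusted p by edgeR, 0.0728, 0.0849 and 0.0849, and did not pass.

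**Figure D5:**
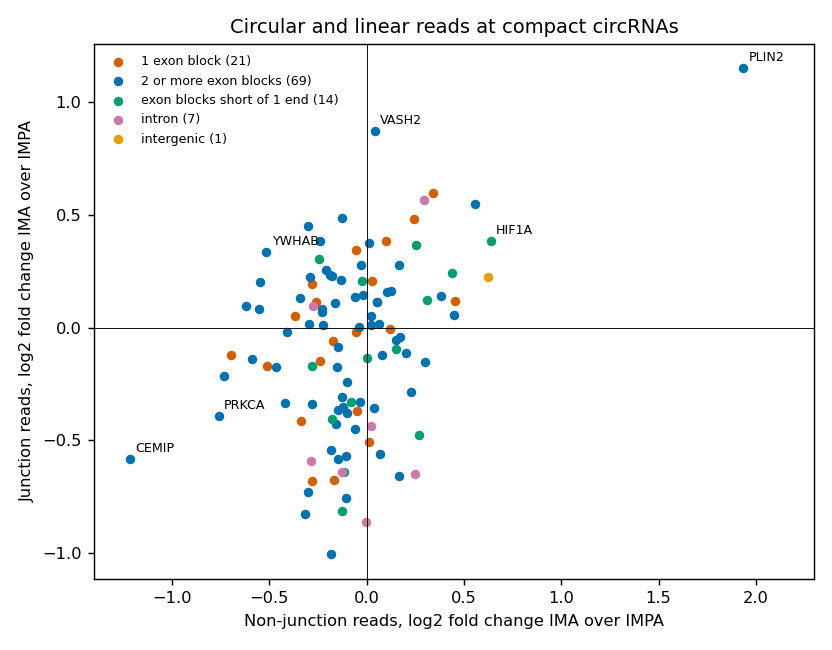
Log2 fold change of IMA over IMPA for non-junction reads (x axis) and junction reads (y axis) at the 112 compact circRNAs called in all 10 libraries, coloured by class, with 6 host genes named. VASH2 is high on the junction axis at a non-junction change of 0.04, PLIN2 is high on both axes, and CEMIP is low on both with -0.58 and -1.22.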

How the data were processed

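Ribosomal RNA was removed from total RNA of 5 IMPA and 5 IMA libraries before sequencing. The study's results section names HISAT2 for clean reads. Per the study's methods, the authors kept circRNAs that find_circ and CIRI2 both called, and SAMtools stands in the submitters' processing notes. The genome build and tool versions are not given in the sources used here. The deposited counts are junction reads per circRNA, with no normalization. The deposited TPM values were made by the authors as CPM, a scaling of the counts to the library's total of junction reads without a length term (checked, largest difference 4.99e-06). The location table also names 10 samples that were not used. Locations are printed 1-based.

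The members and gene lists were chosen with earlier results of these data known. A circRNA was compact where the first row of the location table lists a full length of 2000 or less. Named circRNAs were those with the smallest adjusted p in each test, the highest TPM overall and by class, the highest and lowest circular share, the shortest, those nearest the limit (1 of these is not reported here), those of hosts with several, and up to 4 of each gene list. Hosts listed beyond these were named after their values were seen. The tests of counts used edgeR 4.0.16 under R 4.3.3 (TMM, quasi-likelihood, prior count 2, Benjamini-Hochberg over all circRNAs with reads in at least 5 libraries, threshold 0.01). Non-junction reads are missing where a circRNA was not called (1345 values), so their test, the ratio test (an interaction term with a coefficient per library) and the circular share used the 690 circRNAs called in all 10 libraries, which departs from the planned filter. Library measures were compared by exact permutation over libraries, adjusted over 7 measures (scipy 1.17.1). Intervals and floors cover counting error only, and the floor takes a listed 0 as 0 reads. On simulated data with log2 changes of 1.5, the junction test recovered 50% of 200 changed circRNAs, or 93% of 57 with a mean count of at least 10. Alternatives were DESeq2 1.42.0, other scalings, filters and thresholds, the replicate block, span limits and libraries or circles left out.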

Additional observations from a re-analysis of the deposited data

Results flagged for a closer look

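In 11 of 141 groups of 5 libraries, 1 library lay far from the other 4, and chance alone gives about 1 in 20 such groups where values do not tie. That rate may not hold here, since many counts are low and in some of the 11 the other 4 libraries were all at 0. The median log10(TPM + 1) of compact minus remaining circRNAs was -0.0967 in IMA4 and 0 in the other IMA libraries. The share of compact junction reads from intron and intergenic circles was 6.55% in IMA3, against 5.04% to 5.18% in the other 4.

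The other 9 were normalized TPM values of single compact circRNAs. IMPA5 stood apart 3 times, with 2832 for PLXND1 against 1502 to 1646, 527 for ZCCHC6 against 250 to 297, and 461 for DIAPH2 against 835 to 891. IMPA1 had 6205 for INSR, against 4850 to 5174 in the other IMPA libraries, and 146 for the intergenic circ_0011723, against 0. IMPA2 had 1646 for UBL5, against 988 to 1168. IMA1 had 1941 for NUCB1, against 749 to 1000. IMA5 had 192 for CDKAL1 and IMA2 had 281 for the intergenic circ_0003552, both against 0 in the other 4 IMA libraries. The causes were not tested.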

How the results depend on the processing

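With the span limit at 1000 the difference of the compact share of junction reads turned to 0.728 points (exact p = 0.0476) and that of the single-block share to -0.517 (exact p = 0.444), the number detected differed by -4.6 (exact p = 0.103) and the intron and intergenic share by -1.83 points (exact p = 0.0397). With counts under 5 set to 0 the compact share differed by -0.875 points (exact p = 0.119), and without the EEFSEC circle, an alternative chosen after seeing the data, by -0.528. At the limit of 1000 without VASH2, also chosen after seeing the data, it differed by -0.013. The circular share differed by 0.577 points without VASH2 (exact p = 0.0556). Leaving out each library gave -1.07 to -0.638 points for the compact share, where the exact p was above 0.05 without IMPA1, IMPA2, IMPA4, IMPA5, IMA3 or IMA4, -18.9 to -14.2 circRNAs for the number detected and -0.702 to -0.219 points for the intron and intergenic share.

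Compact circRNAs lower by junction reads numbered 6 at an adjusted p of 0.05, 1 without TMM, 1 with uniquely mapped reads as library sizes, 1 without IMA2 and IMA3 (chosen after seeing the data) and 1 to 3 with a library left out, with 1 (EEFSEC) without IMPA1, IMPA5, IMA1, IMA2 or IMA4, where CEMIP was lost. Those higher by non-junction reads numbered 16 at 0.05, 5 without TMM, 5 with uniquely mapped reads and 5 to 10 with a library left out, with 6 without IMPA1, 5 without IMA4 and 6 without IMA5. Those lower numbered 24 at 0.05, 20 without TMM and 9 to 12 with a library left out, and ratios called higher 1 to 2, with 1 without IMA3. The causes were not tested.

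Libraries of the same replicate number had residual correlations of -0.04 to 0.01. Most counts are low, so counting noise could hide a shared animal, and whether the numbers pair the libraries was not decided. With the replicate block, 1 compact circRNA was higher and 2 lower by junction reads, and 11 and 15 by non-junction reads. Of the alternatives run, 170 of the 203 values of group measures and counts were labelled as unchanged. For group measures this meant the same direction and side of the threshold. A count of called circRNAs had this label where it was equal or within a set ratio, so small changes of counts are among the 170. Testing non-junction reads without a filter was not run, since missing values have no count. Junction counts are low, with a smallest count above 0 of 2, so small changes of most compact circRNAs were not detectable at this depth.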
